A study of Mus musculus with 4 samples.

Results

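Conventional CD4 T cells were taken from single-cell RNA sequencing of MC38 tumors by a gate on unique molecular identifier (UMI) counts, where each UMI stands for 1 captured transcript. A cell was a member when it held at least 1 UMI of a CD3 chain (Cd3d, Cd3e or Cd3g), 1 of Cd4 and 1 of a T cell receptor constant gene (Trac, Trbc1 or Trbc2). It also had to hold 0 UMIs of each of 8 genes. These were the regulatory T (Treg) cell gene Foxp3, the cytokine receptor gene Il2ra and the CD8 chains Cd8a and Cd8b1. The others were the gamma-delta chain Trdc, the macrophage genes C1qa and Adgre1, and the tumor line gene Hmga2. The gate took 233 of the 31143 cells with more than 500 detected genes, and 233 of the 3725 T cells. Members were thus chosen by measured values, the UMI counts of these 15 genes, which are not read as findings below. The WT IgG library held 54 members, WT anti-PD1 held 78, A159V IgG held 39 and A159V anti-PD1 held 62, and values given without names below follow this order of libraries.

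MC38 is a mouse colon adenocarcinoma line, and its tumors were grown under the skin of C57BL/6 mice. The tumor cells carried wild-type (WT) RAC1, a small GTPase of the cytoskeleton, or the A159V substitution, knocked in at the endogenous gene by CRISPR-Cas9 in the clone used for grafting. Host T cells were therefore of the same genotype in every group, and the mice were given either isotype control antibody (IgG) or antibody blocking PD1, an inhibitory receptor of T cells (anti-PD1). Each of the 4 groups was 1 library, the number of mice behind it is not given in the sources used here, and CD45+ and CD45− fractions, split on beads, had been combined again in a chosen proportion. With 1 library per group no test between groups was possible, so differences between libraries are given with 95% intervals that cover counting error only.

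Conventional CD4 T cells recognise peptides on MHC class II and help other cells through surface ligands such as CD40 ligand and through cytokines. They include naive, memory and effector cells, among them the Th1, Th2, Th17 and follicular helper (Tfh) states, and they differ from Treg cells, which depend on Foxp3 and restrain immune responses. In tumors, CD4 help is known for licensing dendritic cells and sustaining CD8 T cells.

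The 4 libraries held 54402632 to 125227747 UMIs each. The WT anti-PD1 library stood apart, since it held 129 cells with an Hmga2 UMI against 951 to 1742 in the others and 1585 fibroblasts against 190 to 221. The members themselves were shallow. Their median depth was 2308.5, 3409.5, 1466 and 2024.5 UMIs per cell, and their summed UMIs were 175792, 320674, 106771 and 164743. The 3 deepest members held 29.9%, 12.7%, 42.2% and 20.8% of those UMIs, so the A159V IgG values leaned most on few cells. Between 12 and 18 barcodes were shared by any pair of libraries, of which members of both libraries shared 0. In each of 2 pairs, 1 member shared its barcode with a cell of the other library that was not a member.

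The zeros in the gate set where the population ends. Of 716 cells with Cd4, CD3 and T cell receptor UMIs, 156 were left out by Il2ra alone and 24 by Foxp3 alone, and 275 held UMIs of 2 or more of the 8 genes. The 156 Il2ra-positive, Foxp3-negative cells just outside the gate had a median of 3142 UMIs per cell against 2306 in the members, and deeper cells have more chances to show a UMI of any barred gene. Of the members, 132 were inside the gate on a single Cd4 UMI, 56 on 2 and 45 on 3 or more. A further 917 cells met every condition but held no Cd4 UMI. Macrophages of the same libraries held a Cd4 UMI in 1.29%, 3.75%, 1.0% and 1.34% of cells.

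Markers outside the gate fitted a T helper identity in part. Cd40lg, which encodes CD40 ligand (ENSMUSG00000031132, GRCm38 chromosome X, 57212143 to 57224042, plus strand, protein coding), was seen in 59 of the 233 members. Genes of the gamma-delta and other unconventional lineages gave 0, 9, 3 and 6 UMIs over 9 genes, with Tcrg-C1, Tcrg-C4, Trdv4 and Sox13 at 0 in every library. Of 6 B cell genes, Cd79a and Ms4a1 were at 0 in every library, while Ighm was at 17.1, 62.4, 28.1 and 42.5 CPM. Some genes of other lineages were higher. The tumor line gene Rhox5 was at 307, 0, 318 and 206 CPM. Among macrophage and monocyte genes, Lyz2 was at 324, 34.3, 93.7 and 194 CPM and Fcer1g at 267, 28.1, 365 and 279 CPM. A zero for Foxp3 at this depth does not exclude Treg cells, and Ikzf2, which encodes the Treg-associated factor Helios, was seen in 80 members and Ctla4 in 118. Of the 80 Ikzf2-positive cells, 60 also held Ctla4 and 13 held Cd40lg.

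As a share of T cells the population was about the same in the 4 libraries. The WT IgG share was 6.0% of T cells (95% exact binomial interval, 4.54 to 7.76) and the WT anti-PD1 share 6.74% (5.36 to 8.34). Among T cells of the A159V tumors the members made up 5.70% with IgG (4.09 to 7.71) and 6.31% with anti-PD1 (4.87 to 8.01). All 4 intervals overlapped. The fold between libraries was 0.95 for A159V IgG over WT IgG (0.637 to 1.42) and 1.12 for WT anti-PD1 over WT IgG (0.802 to 1.57). For A159V anti-PD1 over A159V IgG it was 1.11 (0.750 to 1.63). With this gate and denominator, no difference was detectable at this number of cells. Depth bore on the first and last of these folds. With the gate applied to cells thinned to 1500 UMIs each, the folds were 0.512 (0.272 to 0.964) and 1.78 (0.941 to 3.37). A gate at 2 or more Cd4 UMIs moved the fold for anti-PD1 in WT tumors to 2.28 (1.28 to 4.07). Without the Il2ra condition that fold was 1.30 (1.01 to 1.67). It was 1.59 (1.13 to 2.24) as a share of cells with a Ptprc UMI and 1.54 (1.09 to 2.18) of all cells. For A159V IgG over WT IgG, the share of all cells gave 0.648 (0.430 to 0.976).

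**Figure D1:**
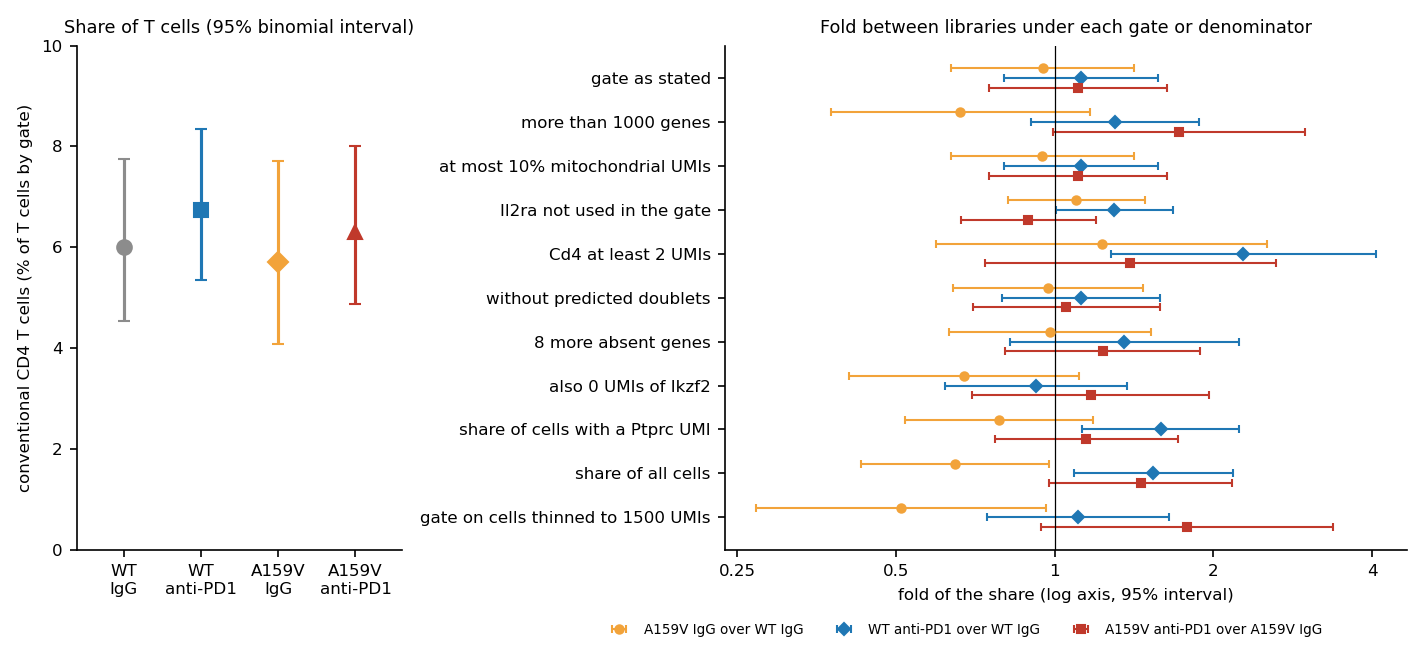
Left, members as a percentage of T cells in each library, with 95% exact binomial intervals. Right, the fold of that share between libraries on a log axis, with 95% intervals, for the gate as stated and for 10 other gates or denominators. The 4 shares lie between 5.70% and 6.74%, and the intervals of the 3 folds span 1 under the stated gate.

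To describe what set these cells apart from their neighbors, their UMIs were summed per library. They were compared with those of the Treg cells (198 cells with Cd4 and Foxp3) of the same 4 libraries. These held 62, 58, 17 and 61 Treg cells, and in A159V IgG the 3 deepest held 48.0% of the Treg UMIs. Il2ra was barred in the members only, and the Treg gate set no condition on it. The part of this unequal condition in the differences below was not tested apart from the repeat without it. The members carried more transcript of the tumor necrosis factor family ligands Tnfsf8 and Tnfsf11 and of the memory-associated factors Tcf7 and Bach2, while Treg cells carried more of Ikzf2, Ctla4, the costimulatory receptors Tnfrsf9 and Tnfrsf4, Gzmb and the proliferation gene Mki67. In edgeR's quasi-likelihood test with the library as a block, 178 genes were higher (4.02% of 4433 tested) and 164 lower (3.7%) at a Benjamini-Hochberg adjusted p under 0.05. The members were shallower per cell than the Treg cells, whose medians were 3699, 3946, 4542 and 4237 UMIs. The 4 libraries differ in genotype and treatment, so these calls describe what the libraries had in common.

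Among helper ligands and cytokines, 5 of 16 listed genes passed the low-count filter, of which 2 were higher and 1 lower. Tnfsf8, which encodes CD30 ligand (chromosome 4, 63831308 to 63861347, minus strand), was at 529, 346, 159.2 and 164 counts per 1000000 UMIs of the cells (CPM) in the members and at 3.13, 0, 29.9 and 0 CPM in Treg cells, a log2 fold change of 6.26 (SE 0.60, edgeR adjusted p = 0.000184). Tnfsf11, which encodes RANK ligand (chromosome 14, 78277445 to 78308043, minus strand), was at 171, 365, 56.2 and 164 CPM against 15.7, 8.66, 0 and 6.59 CPM (log2 fold change 4.52, SE 0.39, edgeR adjusted p = 0.000124). Every member value exceeded every Treg value for both genes. Cd40lg fell under the filter in this comparison, with 1 Treg UMI in each library (3.13, 2.89, 9.97 and 3.29 CPM) against 31, 86, 4 and 10 UMIs in the members. Il10, an inhibitory cytokine, was the gene of the list that was lower (log2 fold change -2.32, SE 0.53, edgeR adjusted p = 0.0187).

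Of 10 tested naive and central memory genes, 4 were higher. Tcf7, which encodes the memory factor TCF1 (chromosome 11, 52252371 to 52283014, minus strand), was at 216, 237, 56.2 and 206 CPM in the members and at 3.13, 5.78, 0 and 9.88 CPM in Treg cells (log2 fold change 5.13, SE 0.39, edgeR adjusted p = 6.36e-05). Bach2, a repressor of effector programs, was at 307, 932, 131 and 237 CPM against 47.0, 49.1, 19.9 and 49.4 CPM (3.20, SE 0.33, edgeR adjusted p = 0.000206). The ranges did not overlap for either gene. Lef1 and the egress receptor gene S1pr1 were higher as well (log2 fold changes 1.12 and 2.03). The interleukin 7 receptor gene Il7r did not pass (log2 fold change 0.33, edgeR adjusted p = 0.431).

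Genes of Th1 and Tfh cells differed as well. In the Th1 list, 4 of 9 tested genes were higher (the interleukin 18 receptor genes Il18r1 and Il18rap, the interleukin 12 signal transducer Stat4, and Cxcr6). Cxcr6, the receptor for CXCL16, was at 188, 536, 74.9 and 206 CPM against 50.1, 31.8, 19.9 and 59.3 CPM in Treg cells (log2 fold change 2.64, SE 0.37, edgeR adjusted p = 0.00148). In the Tfh list, 4 of 9 were higher (Tnfsf8, Btla, Slamf6 and the adaptor gene Sh2d1a) and 3 lower (Izumo1r, Maf and Icos). Of 15 T cell identity genes, 5 were higher, led by the selection gene Themis (2.42, SE 0.31, edgeR adjusted p = 0.000865).

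The Treg genes that the gate had not used went the other way. Of 12 tested, 9 were lower and Nrp1, a receptor found on thymic Treg cells, was higher (log2 fold change 1.59, SE 0.25, edgeR adjusted p = 0.00243). Ikzf2 (chromosome 1, 69531214 to 69687245, minus strand) was at 347, 468, 1274 and 1056 CPM in the members and at 4945, 5623, 2532 and 4169 CPM in Treg cells (log2 fold change -2.53, SE 0.37, edgeR adjusted p = 0.00161). Ctla4, which encodes an inhibitory receptor, was at 307, 717, 506 and 425 CPM against 2177, 1274, 1465 and 1574 CPM (-1.68, SE 0.25, edgeR adjusted p = 0.00177). Neither range overlapped. Tnfrsf9 (4-1BB) and Tnfrsf4 (OX40) were lower by log2 fold changes of -2.31 and -1.75. The list median was -1.72, against 0.05 over all genes tested.

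Most proliferation genes were also lower than in Treg cells. Of 11 cell cycle genes, 8 were lower, and Mki67, which encodes the proliferation marker Ki-67, was at 11.4, 28.1, 46.8 and 6.07 CPM against 185, 136, 319 and 264 CPM (log2 fold change -3.14, SE 0.38, edgeR adjusted p = 0.000572). Of these 8, Mki67, Top2a, Stmn1, Birc5, Pclaf and Ube2c were also high outside T cells. In some libraries, macrophages, fibroblasts, tumor cells or neutrophils held over 5 times the members' level. The protease gene Gzmb (chromosome 14, 56258838 to 56262260, minus strand) was at 171, 34.3, 590 and 455 CPM against 1588, 1256, 1714 and 1344 CPM (-2.59, SE 0.44, edgeR adjusted p = 0.00326), the 1 gene called of 6 tested in the cytotoxic and CC chemokine list, whose median was 0.47. Among the 20 genes with the largest changes were also Pde3b, Bcl2, Fgf13 and Bicdl1 on the higher side. Cep112, Itgb8, Klrg1, Sv2c, Itgae, Nckap5, Neb and Ikzf4 were also on the lower side. Bcl2, which encodes a survival protein, was at 586, 228, 356 and 492 CPM against 53.2, 69.3, 99.7 and 36.2 CPM. The tumor line gene Lgals7 was among the 10 most raised genes but was higher in 3 of 4 libraries, with 65 UMIs over all members.

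How many genes were called against Treg cells depended on the gate and on single libraries. Without the Il2ra condition the counts were 72 higher and 61 lower, and the lower calls of Gzmb, Cep112, Itgae, Nckap5 and Neb were lost. Leaving out WT IgG gave 76 and 81, leaving out WT anti-PD1 gave 89 and 136, leaving out A159V IgG gave 162 and 217, and leaving out A159V anti-PD1 gave 72 and 81. Fgf13 lost its call without WT anti-PD1, Klrg1 and Lgals7 without A159V anti-PD1, and Lgals7 without WT IgG.

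**Figure D2:**
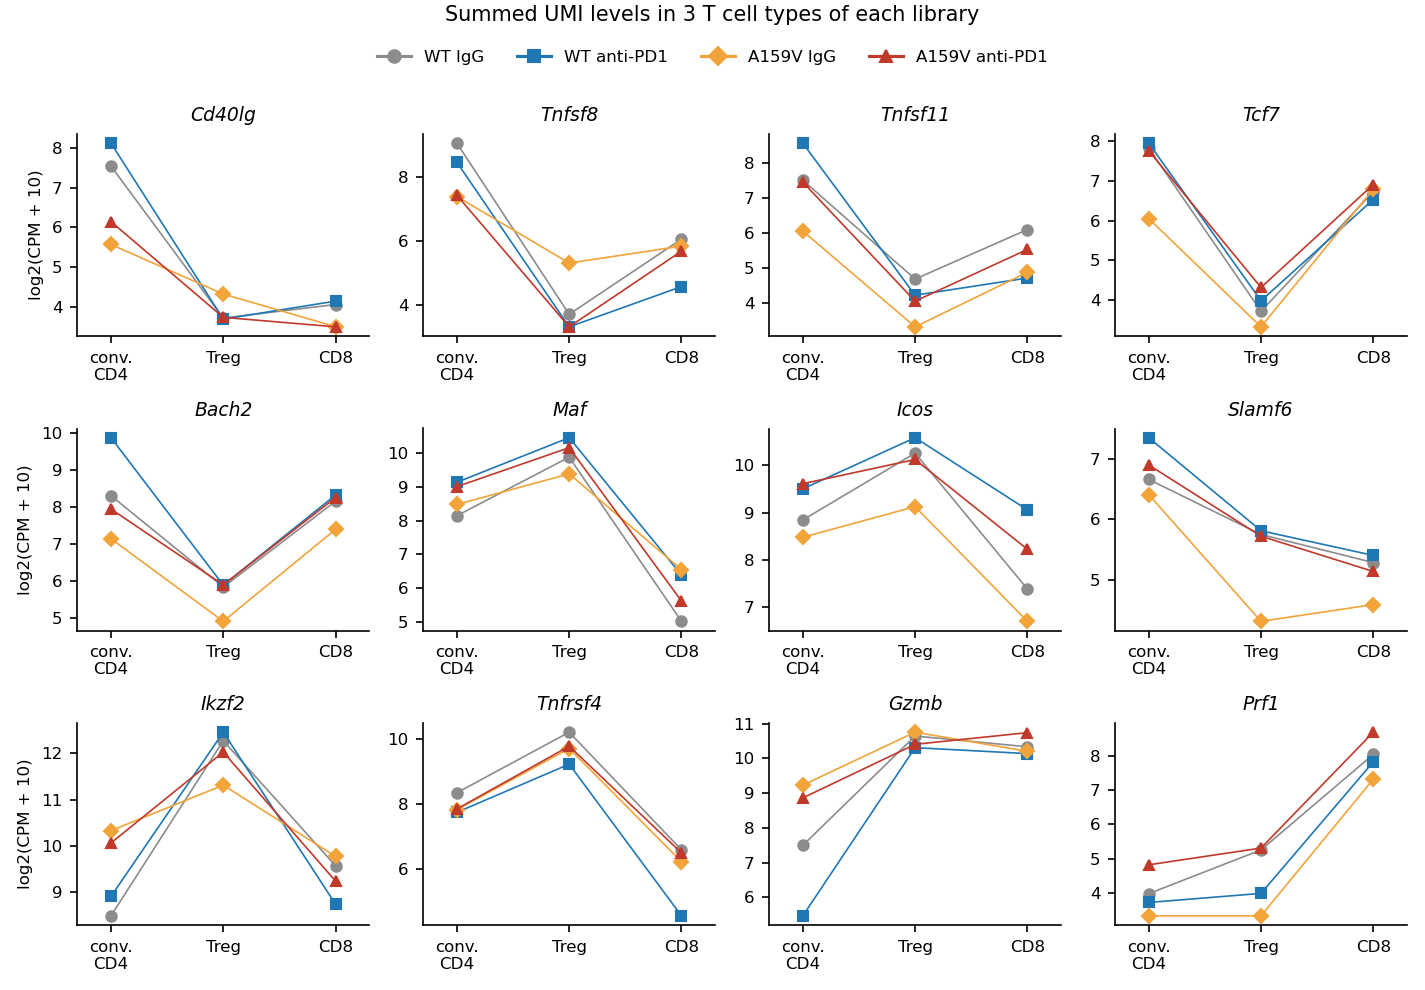
Level of 12 genes on a log2(CPM + 10) scale in conventional CD4 T cells, Treg cells and CD8 T cells, with 1 line per library. The scale of the vertical axis differs between panels. Tnfsf8, Tnfsf11, Tcf7 and Bach2 drop from the members to Treg cells in each library, Ikzf2 and Tnfrsf4 rise, and Maf and Icos drop from the members to CD8 T cells.

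To place the members against cytotoxic cells, the same test was run against the 1410 CD8 T cells, whose gate also set no condition on Il2ra. The members were marked by Cd40lg, Maf, Il1rl1 and other genes of CD4 cells and were low in cytotoxic genes. In this comparison 198 genes were higher (2.83% of 7007 tested) and 197 lower (2.81%). With Il2ra not used in the members' gate, 417 were higher and 252 lower of 7942 tested. Both comparisons use the same members, so their calls are not independent. CD8 T cells were deeper, with medians of 4259, 3605, 2710 and 3303 UMIs per cell.

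Cd40lg was at 176, 268, 37.5 and 60.7 CPM in the members and at 6.63, 7.65, 1.29 and 1.26 CPM in CD8 T cells, a log2 fold change of 4.95 (SE 0.32, edgeR adjusted p = 6.61e-07). Each member value exceeded each CD8 value. Maf, a transcription factor of helper cells that make interleukins 4, 10 and 21 (chromosome 8, 115682942 to 115707794, minus strand), was at 273, 552, 347 and 504 CPM against 22.4, 73.8, 83.8 and 39.2 CPM (3.02, SE 0.24, edgeR adjusted p = 2.95e-06). Of 5 tested CD4 lineage genes, 3 were higher, namely Cd40lg, Gata3 (1.66, SE 0.23, edgeR adjusted p = 0.000355) and Runx1 (1.75, SE 0.21, edgeR adjusted p = 0.00011). Il1rl1, which encodes the interleukin 33 receptor ST2, was at 45.5, 268, 262 and 170 CPM against 7.14, 5.40, 94.1 and 28.5 CPM (2.98, SE 0.49, edgeR adjusted p = 0.00166).

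Helper genes went in both directions, with a list median of -0.05 against -0.01 over all genes. Of 9 helper ligands and cytokines tested, Cd40lg, Tnfsf8, Tnfsf11 and Il10 were higher, while Ifng and the death ligand gene Fasl were lower. Of 9 Tfh genes, 5 were higher (Maf, Tnfsf8, Slamf6, Btla and the costimulatory receptor gene Icos) and Pdcd1, the gene of the PD1 receptor, was lower (log2 fold change -1.06, SE 0.22, edgeR adjusted p = 0.00799). Of 12 naive and central memory genes, 3 were higher, namely S1pr1 (1.72), Il7r (1.04) and the quiescence factor Klf2 (1.03). Il7r was at 569, 259, 515 and 498 CPM against 204, 164, 178 and 303.5 CPM, with the WT anti-PD1 members inside the CD8 range.

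The cytotoxic program was low. Of 16 tested genes of cytotoxic granules, NK receptors and CC chemokines, 14 were lower, with a list median of -2.38 against -0.01 over all genes. Prf1, which encodes perforin (chromosome 10, 61297833 to 61304680, plus strand), was at 5.69, 3.12, 0 and 18.2 CPM against 256, 219, 151 and 408 CPM (log2 fold change -5.33, SE 0.35, edgeR adjusted p = 6.61e-07). Gzmb was less sharply apart, at 171, 34.3, 590 and 455 CPM against 1279, 1115, 1168 and 1698 CPM (-2.50, SE 0.39, edgeR adjusted p = 0.00109). Klrd1, which encodes the NK receptor CD94, was at 62.6, 103, 122 and 103 CPM against 832, 708, 596 and 799 CPM (-2.97, SE 0.21, edgeR adjusted p = 1.14e-06).

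Type 1 effector genes were present but below CD8 levels. Of 11 Th1 genes, 4 were lower, namely Ifng, Tbx21, Runx3 and Il12rb2. Ifng, the gene of interferon gamma, was at 125.1, 118, 28.1 and 18.2 CPM against 318, 262, 123 and 317 CPM (log2 fold change -1.81, SE 0.32, edgeR adjusted p = 0.00267). In the members it came from few cells, since 18 of 22 UMIs in WT IgG and 25 of 38 in WT anti-PD1 were from a single cell. Among the remaining genes with the largest changes, Dgki, Lgals7, Penk, Sugct, Ramp3, Tmem64 and Cpm were higher and Gzmc, Dapk2, Klrc2, Gzma, Myo10, Setbp1, Samd3 and Ly6c2 lower. Penk, which encodes the opioid precursor proenkephalin, was at 22.8 and 37.4 CPM in the WT libraries and at 244 and 370 CPM in the A159V libraries.

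Of 14 tested cell cycle genes, 6 were lower than in CD8 T cells. Of 8 stromal genes, 6 were tested, and Col1a1 and Col1a2 were lower and Pecam1 higher. Col1a1 was at 22.8, 415, 18.7 and 6.07 CPM in the members and at 7.65, 2006, 199.9 and 10.7 CPM in CD8 T cells, so it was lower chiefly in WT anti-PD1 and A159V IgG. Pecam1 was higher in each of the 4 libraries. Of 3 tested tumor line genes, Lgals7 and Rhox5 were higher. Leaving out the A159V anti-PD1 library cut the calls against CD8 T cells to 96 higher and 106 lower, leaving out WT IgG gave 134 and 128, and leaving out WT anti-PD1 gave 221 and 234.

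**Figure D3:**
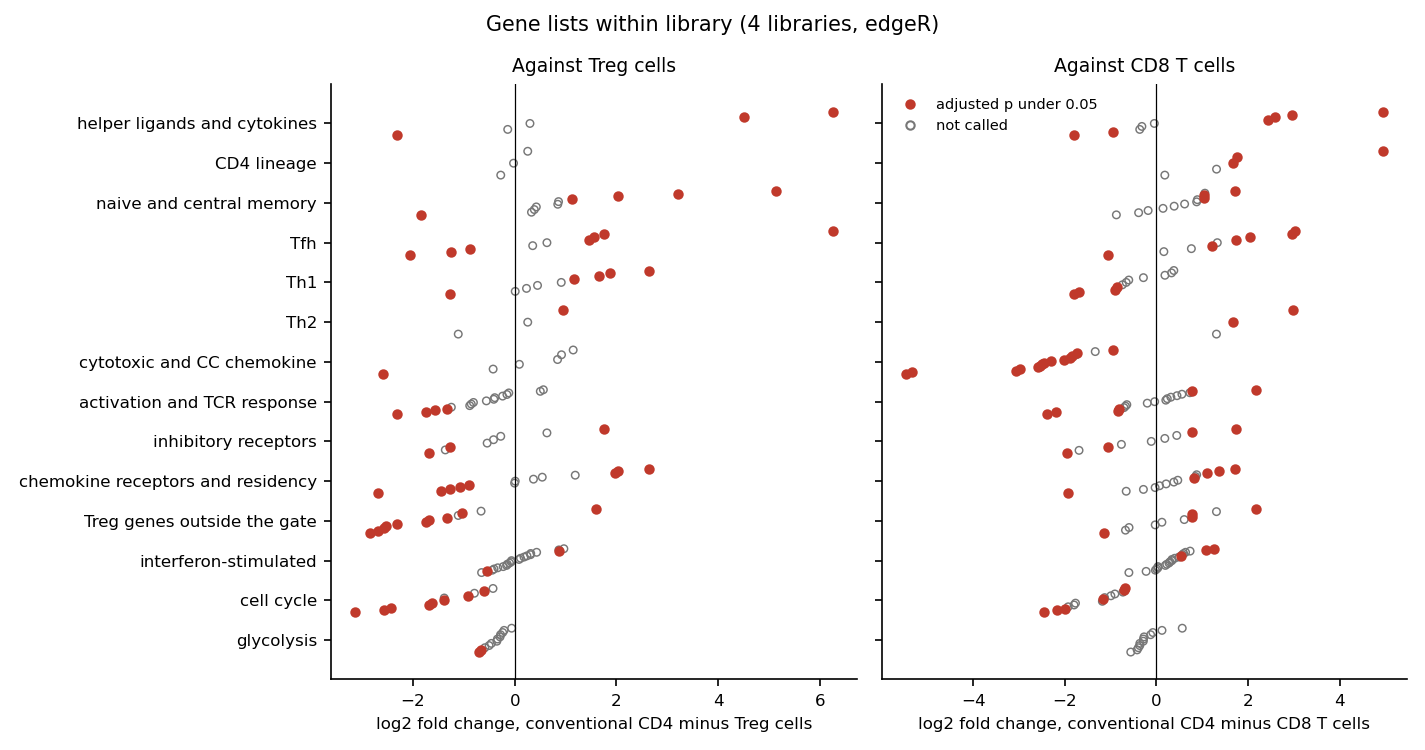
Log2 fold change of each tested gene of 14 gene lists, conventional CD4 T cells minus Treg cells (left) and minus CD8 T cells (right), over 4 libraries. Filled points passed an edgeR adjusted p under 0.05, and Cd160, with 0 UMIs in the members, is left out. Treg and cell cycle genes lie to the left against Treg cells, and 14 of 16 cytotoxic and CC chemokine genes are filled to the left against CD8 T cells.

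Helper states were mixed within the population. Over all 233 members, 91 held a UMI of Tbx21, Cxcr3 or Ifng, 45 of Cxcr5, Bcl6 or Il21, and 53 of Gzma, Gzmb, Gzmk or Prf1. To compare libraries of unequal depth, cells with at least 1500 UMIs (46, 76, 18 and 53 members) were thinned to that number. Cd40lg was then seen in 8, 22, 1 and 6 of these cells and in none of the macrophages or fibroblasts (0%). The Th1 factor Tbx21 was seen in 9, 17, 2 and 6 cells, Gata3 in 10, 23, 3 and 14, and Tcf7 in 9, 14, 0 and 14. Bcl6 was seen in 4, 13, 1 and 8 cells, but macrophages held it in up to 31.6% of cells.

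Follicular and Th17 signals were sparse. Cxcr5, the follicle homing receptor gene, gave 3 UMIs in WT anti-PD1 and 0 in the other libraries, and Il21 gave 14 UMIs in 6 WT anti-PD1 cells and 0 elsewhere. Il17a, Il17f and Il22 were at 0 in all 4 libraries. With 3 counts as the limit for a count of 0, a zero allows up to 17.1, 9.36, 28.1 and 18.2 CPM. Single cells made most of some cytokine counts, with 31 of the 34 Il2 UMIs and all 34 Il13 UMIs of WT anti-PD1 from 1 cell each.

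To ask how the tumor genotype went with the state of these host cells, A159V IgG was compared with WT IgG. The A159V IgG members were lower in helper ligands and in memory factors and higher in Ikzf2 and some interferon-stimulated genes. Ratios are of CPM + 10 on the log2 scale, over genes that reached 50 CPM in either library and 20 UMIs over both. Of 2851 genes, 185 were at least 2-fold higher (6.49%) and 196 at least 2-fold lower (6.87%), with a median of -0.05. There is no replicate, and 39 cells with 106771 UMIs stand behind the A159V IgG values.

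Of 6 helper ligands and cytokines with enough UMIs, 4 were at least 2-fold lower, and the list median was -1.56. Cd40lg had 31 UMIs in 14 of 54 WT IgG cells and 4 UMIs in 4 of 39 A159V IgG cells, a log2 ratio of -1.97 (-3.19 to -0.76). It stayed between -3.13 and -1.48 under the other settings, and A159V anti-PD1 was nearer to A159V IgG than to either WT library. Tnfsf8 was at -1.67 (-2.38 to -0.96), with 33 of the 93 WT IgG UMIs from 1 cell, Ifng at -1.83 (-3.15 to -0.50), with 18 of the 22 WT IgG UMIs from 1 cell, and Tnfsf11 at -1.45 (-2.54 to -0.35). In the CD8 T cells of these libraries Tnfsf11 stood at -1.22 and Tnfsf8 at -0.22.

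Of 8 naive and central memory genes, Tcf7, Bach2, Foxp1 and Klf2 were at least 2-fold lower, with a list median of -0.99. Tcf7 was at 216 CPM in WT IgG and 56.2 CPM in A159V IgG (log2 ratio -1.77, -2.85 to -0.70), and Klf2 at 267 and 56.2 CPM. Foxp1, a factor that keeps T cells quiescent, was at 444 and 178 CPM and Bach2 at 307 and 131 CPM. These 4 genes were lower together, while Lef1 was at 159.3 CPM in WT IgG and 262 CPM in A159V IgG. General T cell genes leaned the same way. Of 13 T cell identity genes, 2 were at least 2-fold lower and 0 higher, with a list median of -0.60 against -0.05 over all genes.

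Ikzf2 was at 347 CPM in WT IgG and 1274 CPM in A159V IgG, a log2 ratio of 1.85 (1.42 to 2.27). It was seen in 11 of 54 and 17 of 39 cells. In the Treg cells of the same libraries (62 and 17 cells) the ratio was -0.96, and in CD8 T cells 0.20. Gzmb was at 171 and 590 CPM (1.73, 1.13 to 2.33), but the ratio turned to -0.34 when Il2ra was not used in the gate. It was the 1 gene at least 2-fold higher of 7 in the cytotoxic and CC chemokine list, in which Ccl5, Klrc1, Klrk1 and Nkg7 were at least 2-fold lower and the median was -1.25. Of 8 Treg genes outside the gate, Ikzf2 and Tnfrsf9 were at least 2-fold higher.

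Interferon-stimulated genes leaned upward, with 6 of 21 at least 2-fold higher and a list median of 0.44. Usp18, which restrains interferon signaling, was at 34.1 and 244 CPM (log2 ratio 2.52, 1.48 to 3.56) and was seen in 6 of 54 and 16 of 39 cells. Bst2 was at 910 and 1901 CPM, and Iigp1 at 125.1 and 318 CPM. Isg15, another gene of this list, was at 614 and 1058 CPM, short of 2-fold.

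Some differences came from the deepest cells. Of 6 cell cycle genes, 4 were at least 2-fold higher with a list median of 1.80, but without the 3 deepest cells of each library the median was -0.61, and Top2a went from 2.52 to 0.00. Hmgb1 and Ncl likewise went from 1.83 and 1.69 to 0.27 and 0.10. All 3 tested dendritic cell genes were at least 2-fold higher, with the class II gene H2-Ab1 at 62.6 and 478 CPM, yet 31 of the 51 H2-Ab1 UMIs of A159V IgG came from 1 cell of the 4 that held any. Dendritic cell genes summed to 449, 349, 2360 and 1663 CPM over 10 genes, of which 7 or 8 were detected per library, with Xcr1 or Clec9a, genes that define type 1 dendritic cells, at 0 in every library. Their part in the genotype difference was not tested.

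The 10 genes with the highest ratios were Usp18, Dpp4, Ikzf2, Hmgb1, Bbx, Cfdp1, Cks2, Gzmb, Ncl and Fam168b. Dpp4, which encodes the peptidase CD26, was at 28.4 and 178 CPM (2.29, 1.17 to 3.41). The 10 lowest were Tpst2, Zfp831, Trappc4, Adam10, Nkg7, Tmcc1, Fosb, Emsy, Fam168a and Ksr1. Each of these 10 had at most 4 UMIs in A159V IgG. Nkg7, a granule gene, was at 228 and 37.5 CPM (-2.32, -3.52 to -1.13), and the sheddase gene Adam10 at 148 and 18.7 CPM (-2.46, -3.86 to -1.06).

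**Figure D4:**
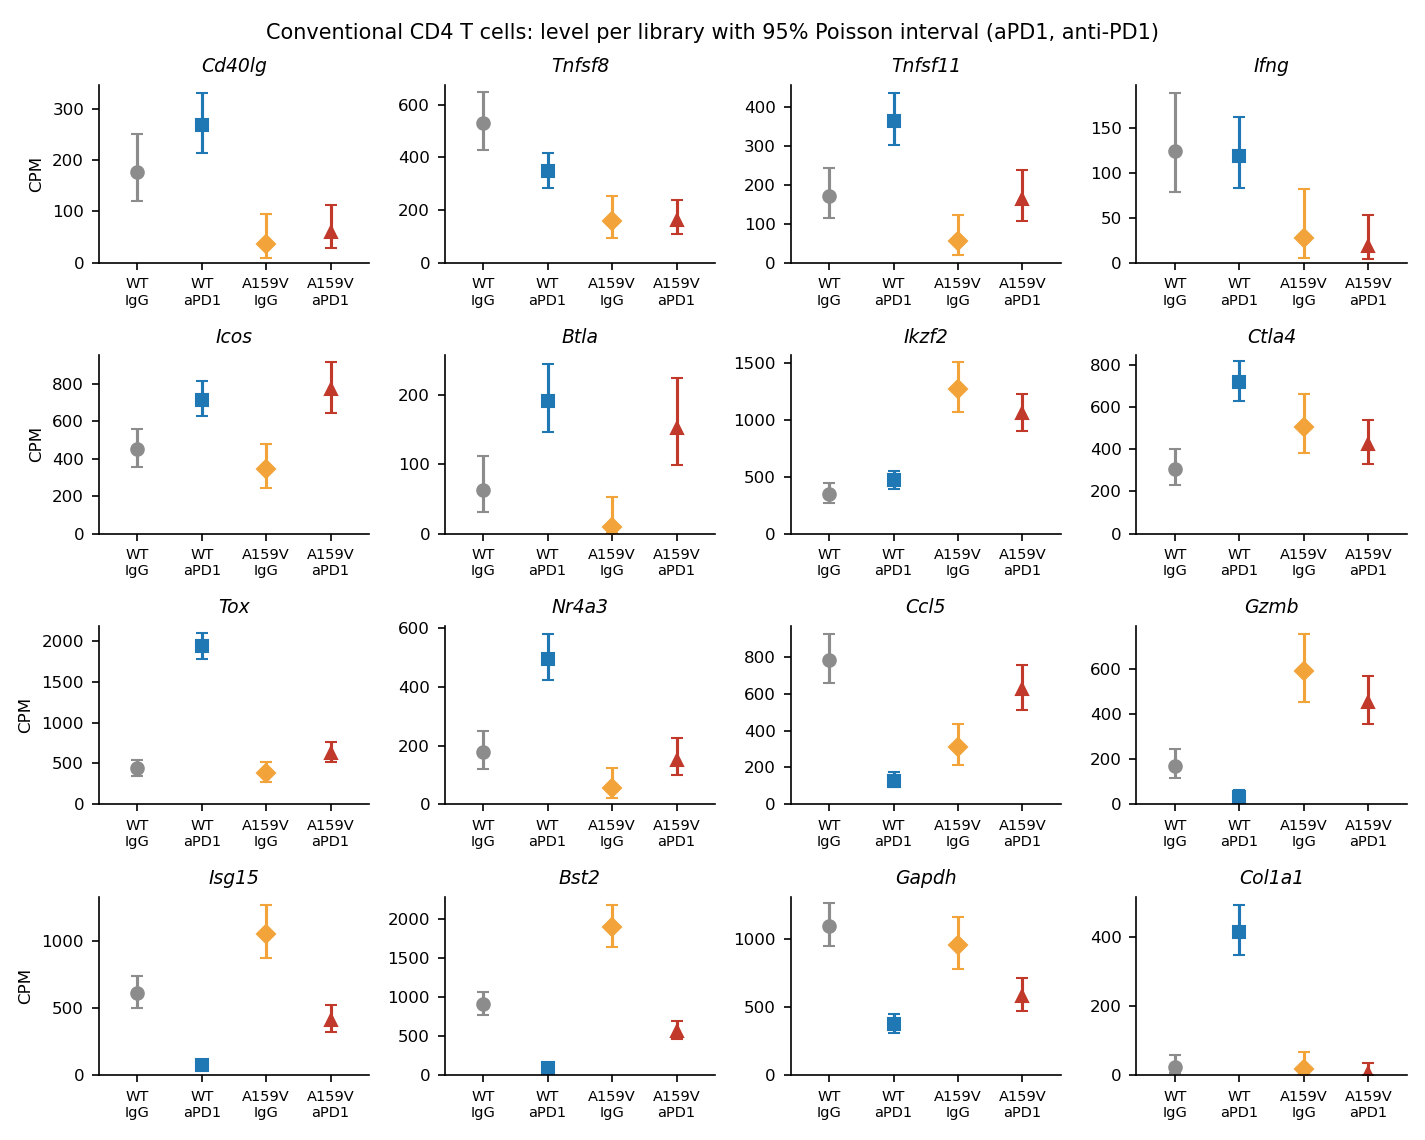
CPM of 16 genes in the conventional CD4 T cells of each library, with 95% Poisson intervals and vertical axes from 0. Cd40lg and Tnfsf8 lie lower in both A159V libraries than in both WT libraries, Ikzf2 lies higher in them, and Isg15, Bst2 and Col1a1 set the WT anti-PD1 library apart.

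To describe checkpoint treatment in WT tumors, WT anti-PD1 was compared with WT IgG, which the genotype comparison above also uses. The WT anti-PD1 members were higher in activation genes, inhibitory receptors and some cytokines and lower in interferon-stimulated and glycolytic genes. Of 4254 genes, 634 were at least 2-fold higher (14.9%) and 433 lower (10.2%), with a median of 0.26. Under median-of-ratios scaling the counts were 493 and 528, so that the share of called genes on the higher side went from 59.4% to 48.3%. Every value in this comparison rests on the library that stood apart, so it cannot be repeated without it.

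Of 16 activation genes, 8 were at least 2-fold higher, with a list median of 0.92. Egr3, a factor induced by T cell receptor signals (chromosome 14, 70077203 to 70082614, plus strand), had 0 UMIs in WT IgG and 49 UMIs in 14 WT anti-PD1 cells, at least 8.95-fold higher against a floor of 3 counts per library. Nr4a3, another receptor-induced gene, was at 176 and 496 CPM (log2 ratio 1.44), and Junb at 876 and 2036 CPM (1.21). Nr4a1 and Nr4a2 were higher as well (1.45 and 2.20). In the A159V libraries Nr4a3 was at 56.2 and 152 CPM, a ratio of 1.29 with anti-PD1.

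Of 7 inhibitory receptor genes, 5 were at least 2-fold higher, with a list median of 1.33. Tox, a factor of chronically stimulated T cells, was at 438 and 1933 CPM (log2 ratio 2.12, 1.78 to 2.45) and was seen in 19 of 54 and 63 of 78 cells. The Tox ratio was 0.60 in Treg cells and 0.24 in CD8 T cells of these libraries. Lag3 was at 39.8 and 234 CPM (2.29, 1.38 to 3.20), Btla at 62.6 and 190 CPM, and Ctla4 at 307 and 717 CPM (1.20). Pdcd1, whose product the antibody binds, was at 79.6 and 122 CPM and short of 2-fold.

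Helper genes were partly higher. Of 10 helper ligands and cytokines, Csf1, Il2, Il4 and Tnfsf11 were at least 2-fold higher and Tnf lower, with the Il2 count resting mostly on 1 cell. Tnfsf11 was at 171 and 365 CPM (log2 ratio 1.05, 0.50 to 1.6). Cd40lg was at 0.58 (0.01 to 1.14), but at 0.03 when each cell was given equal weight. Of 9 Tfh genes, Bcl6, Btla and Cd200 were at least 2-fold higher, with Cd200, the ligand of an inhibitory receptor on myeloid cells, at 11.4 and 187 CPM (3.20, 2.09 to 4.32) in 2 and 12 cells. Gata3 was at 119 and 356 CPM (1.5), and all 4 tested Th2 genes were at least 2-fold higher, among them Il13 from 1 cell.

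Interferon-stimulated genes lay lower, with 12 of 19 at least 2-fold lower and a list median of -1.71. Isg15 (chromosome 4, 156199424 to 156200818, minus strand) was at 614 CPM in WT IgG and 74.8 CPM in WT anti-PD1 (log2 ratio -2.88, -3.45 to -2.30), and Bst2 at 910 and 87.3 CPM (-3.24, -3.77 to -2.71). The whole list summed to 8277, 2510, 9460 and 6774 CPM in the members. It was low in that library in other cells as well, at 9540, 3425, 8572 and 8991 CPM in Treg cells and 5998, 2259, 5746 and 5006 CPM in CD8 T cells, so this difference was not particular to the members. Of 12 glycolytic genes, Eno1, Gapdh, Pgam1 and Tpi1 were at least 2-fold lower, and Gapdh, at 1098 and 374 CPM (-1.53), was also lower in Treg (-0.97) and CD8 T cells (-1.14).

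Cytotoxic and CC chemokine genes were split in WT anti-PD1, with Ccl3 and Gzma at least 2-fold higher, Ccl5 and Gzmb lower and a median of 0.26 over 11 genes, the same as over all genes. Ccl5, a chemokine of effector T cells, was at 785 and 128 CPM (log2 ratio -2.53, -3.0 to -2.05), with the same ratio of -2.53 in Treg cells but 0.31 in CD8 T cells. Gzmb was at -2.03. Collagen UMIs ran with the library, with Col1a1 at 22.8 and 415 CPM in the members (3.70) and ratios of 6.13 in Treg and 6.84 in CD8 T cells. The 8 stromal genes summed to 410, 1494, 215 and 170 CPM in the members, with Cdh5 and Rgs5 at 0 outside WT anti-PD1, and 4 of 6 tested were at least 2-fold higher. The part of stromal UMIs in the other differences was not tested. A stricter gate with 8 more absent genes also required 0 UMIs of Lyz2, Csf1r, Cd79a, Ms4a1, Col1a1, Col3a1, S100a8 and Ncr1. It kept 44, 21, 32 and 52 members. Most of the 78 WT anti-PD1 members thus held a UMI of at least 1 of these genes.

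The 10 genes with the highest ratios in this comparison were Egr3, Gcnt1, Cd200, Ddhd1, Taf4b, Taco1, Dgki, Sh2d4b, Spry1 and Rgs2. Rgs2, a regulator of G protein signaling, was at 34.1 and 237 CPM (2.48, 1.54 to 3.43). The lowest were Ccl2, Ifi204, Bst2, Rnh1, Isg15, Bax, Nme2, Atp5g1, Ifitm3 and Ccl5. Ccl2, a chemokine made chiefly by myeloid and stromal cells, went from -5.47 to -1.71 without the 3 deepest cells, and Dgki from 2.60 to 0.41.

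In A159V tumors, A159V anti-PD1 was compared with A159V IgG, which the genotype comparison uses as well. The treated members were higher in some Tfh, memory and migration genes and lower in interferon-stimulated genes. Of 2878 genes, 356 were at least 2-fold higher (12.4%) and 246 lower (8.55%), with a median of 0.16. The 10 highest genes had 1 to 3 UMIs each in the shallow A159V IgG cells.

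Of 6 Tfh genes, Btla, Icos and Sh2d1a were at least 2-fold higher, with a list median of 0.83. Btla was at 9.37 CPM in A159V IgG and 152 CPM in A159V anti-PD1, from 1 and 25 UMIs (log2 ratio 3.06, 1.6 to 4.53). Icos was at 347 and 771 CPM (1.13, 0.62 to 1.65), and at 0.61 without the 3 deepest cells. Of 8 naive and central memory genes, 3 were at least 2-fold higher, and Tcf7 was at 56.2 and 206 CPM (1.71, 0.63 to 2.79), close to the 216 CPM of WT IgG. Of 10 chemokine receptor and residency genes, Cxcr6, Itgb7, Rgs2 and S1pr1 were at least 2-fold higher.

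Few helper ligands had enough UMIs here. Of 3 with enough UMIs, Tnfsf11 was at least 2-fold higher (56.2 and 164 CPM, log2 ratio 1.39, 0.29 to 2.50), and Tnfsf8 was at 159.2 and 164 CPM. Cd40lg had 4 and 10 UMIs (37.5 and 60.7 CPM), with overlapping Poisson intervals. None of the 8 Treg genes outside the gate was 2-fold apart (0 of 8), and Ikzf2 stood at -0.27 (-0.59 to 0.05). Gata3 was at 103 and 358 CPM (1.70).

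Of 21 interferon-stimulated genes, 8 were at least 2-fold lower, with a list median of -0.58. Isg15 was at 1058 and 413 CPM (log2 ratio -1.34) and Bst2 at 1901 and 571 CPM (-1.72). All 5 tested cell cycle genes were at least 2-fold lower, with a median of -1.94, but the median was 0.28 without the 3 deepest cells. Of 12 glycolytic genes, 2 were at least 2-fold lower.

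The 10 genes with the highest ratios here were Btla, Pacsin2, Gpm6b, Rgs2, Tiparp, Abcc4, Fut8, Adam10, Emsy and Slc9a3r1. Rgs2 was at 18.7 and 182 CPM (2.74, 1.35 to 4.13). The lowest were Ciao2b, Cfdp1, Cks2, Hmgb1, Pfdn2, Atox1, Bst2, Ncl, Cst3 and Ubald2. Hmgb1 went from -1.83 to -0.50 without the 3 deepest cells.

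**Figure D5:**
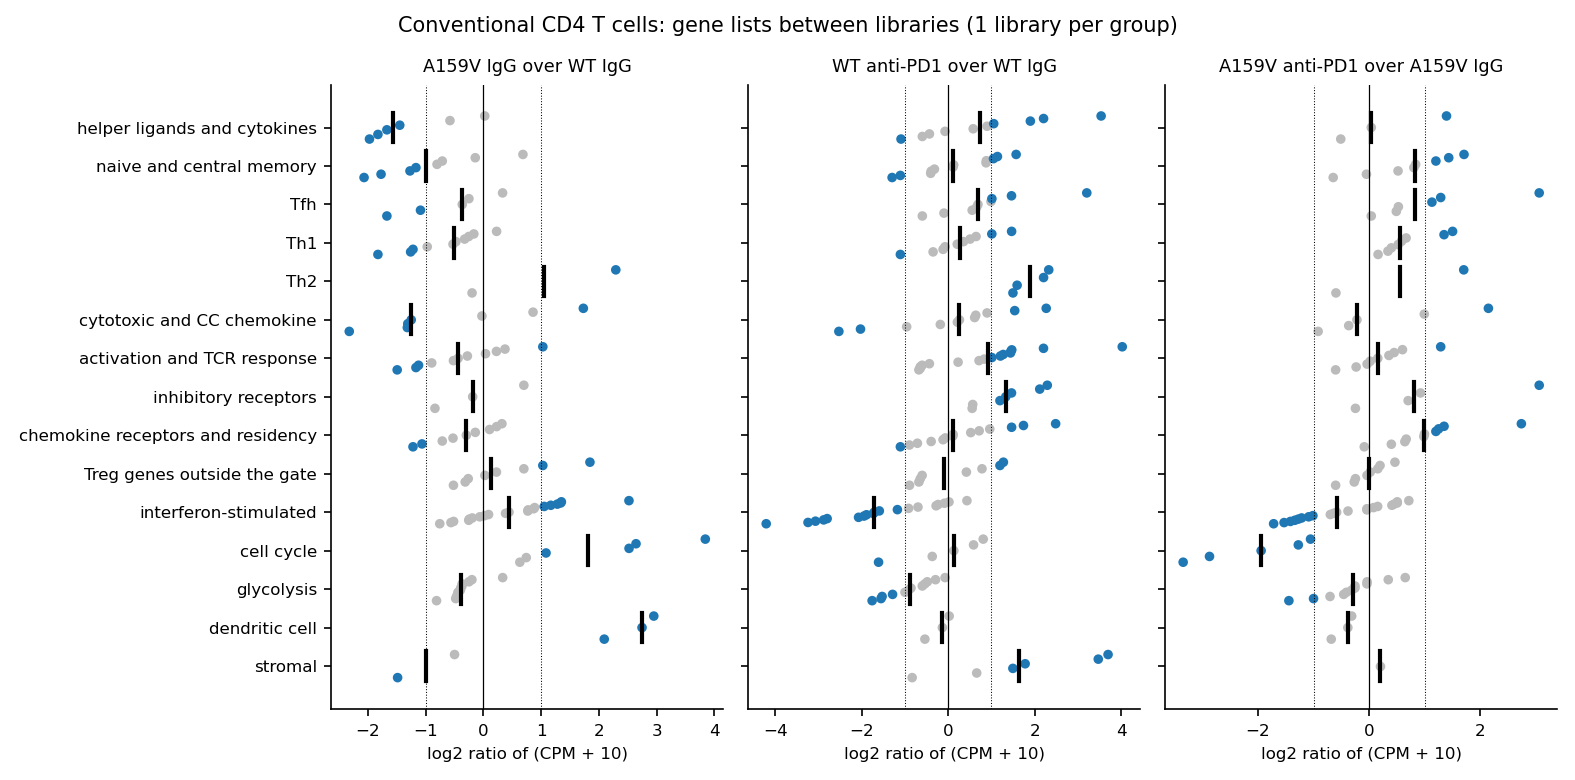
Log2 ratio of CPM + 10 of each gene with enough UMIs in 15 gene lists, for 3 comparisons between libraries. Blue points lie at or past 2-fold, the dotted lines mark 2-fold, and the black bar is the list median. Helper genes lie to the left for A159V IgG over WT IgG, and interferon-stimulated genes to the left for anti-PD1 over IgG in both tumors.

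Side by side, Cd40lg was at 176 and 268 CPM in the WT libraries and at 37.5 and 60.7 CPM in the A159V libraries, and the Poisson intervals of the WT values (120 to 250.3 and 214 to 331) lay above those of the A159V values (10.2 to 95.9 and 29.1 to 112). Tnfsf8 was also lower in both A159V libraries than in both WT libraries, while Ikzf2 was higher in both A159V libraries. Since each genotype and treatment is 1 library, the group and the library cannot be told apart. Among thinned cells Cd40lg was seen in 8 of 46 and 22 of 76 cells in the WT libraries and in 1 of 18 and 6 of 53 in the A159V libraries. The order was the same, but these counts are too small to set WT IgG apart from either A159V library.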

How the data were processed

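The deposited counts are UMIs per gene and barcode. The file headers name Cell Ranger 7.2.0, whereas the submitters' processing notes list Cell Ranger 5.0.1 and the mm10 genome. The study's methods give 10x 3′ v3.1 libraries and counting with introns included. The authors removed ambient RNA and doublets later, and the deposited counts hold neither step. Here cells with more than 500 genes were gated, and Scrublet marked 3, 4, 3 and 7 members as doublets, which were kept. It also marked 2, 3, 3 and 15 Treg cells, which were kept as well. Summed counts were tested within 4 libraries by edgeR 4.0.16 (Benjamini-Hochberg adjusted, library as block), with DESeq2 1.42.0 as an alternative. Library numbers pair the cell types because both come from the same library. Levels are CPM, and intervals are exact Poisson, exact binomial, Katz or delta-method at 95%. Of 260 genes in 24 lists, 258 matched. The members and lists were chosen with earlier results of these data known. Named genes were the 10 highest and 10 lowest called, with a UMI in at least 10 cells of the higher library or at least 50 CPM in the higher type, leaving out gate, mitochondrial, ribosomal protein and receptor genes and genes over 5 times higher in macrophages, fibroblasts, tumor cells or neutrophils, besides the list genes. Simulated counts were used to test the scripts. Some listed genes are not reported here.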

Additional observations from a re-analysis of the deposited data

How the results depend on the processing

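The share folds stayed within the counting interval of the stated gate in 25 repeats and moved in 5. Some of the 25 had intervals of their own that did not span 1. Those were the share of all cells (0.648 for A159V IgG over WT IgG, 1.54 for WT anti-PD1 over WT IgG) and, for WT anti-PD1 over WT IgG, Il2ra not used in the gate (1.30). The 5 that moved included the gate on cells thinned to 1500 UMIs (0.512 for A159V IgG over WT IgG, 1.78 for A159V anti-PD1 over A159V IgG). For WT anti-PD1 over WT IgG they were a gate at 2 or more Cd4 UMIs (2.28) and the share of cells with a Ptprc UMI (1.59). The last was more than 1000 genes per cell (1.72 for A159V anti-PD1 over A159V IgG).

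No paired analysis was possible between groups because each group holds 1 library. Between cell types with no replicate block, that is with library left out of the design, 35 genes were higher and 37 lower than in Treg cells, and 47 and 61 than in CD8 T cells. DESeq2 called 93 and 104 against Treg cells and 156 and 124 against CD8 T cells. Without a count filter, lower genes numbered 372 against Treg cells and 523 against CD8 T cells, because more genes were tested. With Il2ra not used in the gate the counts were 72 and 61 against Treg cells and 417 and 252 against CD8 T cells. With 8 more absent genes they were 61 and 57 against Treg cells, and with 0 UMIs of Ikzf2 also required (chosen after seeing the data) 96 and 131 against CD8 T cells. Leave-one-out counts ranged from 72 to 162 higher and 81 to 217 lower against Treg cells, and from 96 to 221 and 106 to 234 against CD8 T cells. Repeats of the named genes between cell types kept their call in 481 cases and lost it in 17, of which none reversed. Repeats in which a gene was not tested are not counted. Against Treg cells, Itgae was tested in 6 repeats and called in 3, and Lgals7 was tested in 7 and called in 4. Tcf7 was tested in 9 and called in 9.

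Counts between libraries changed together with the number of genes tested, so that number is given beside them. For A159V IgG over WT IgG, 8 more absent genes gave 90 higher and 92 lower (5.33% and 5.45% of 1687), thinning to 1500 UMIs 82 and 98 (8.69% and 10.4% of 944), and leaving out the 3 deepest cells (chosen after seeing the data) 115 and 108 (5.96% and 5.6% of 1928). For WT anti-PD1 over WT IgG these gave 282 and 189 of 1952, 290 and 164 of 2041, and 447 and 249 of 3830. For A159V anti-PD1 over A159V IgG they gave 181 and 96 of 1949, 166 and 77 of 1124, and 184 and 80 of 2074. More than 1000 genes per cell gave 315 lower of 2374 for genotype and 546 higher of 2448 for A159V anti-PD1, and 0 UMIs of Ikzf2 gave 318 lower of 2243 for genotype.

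List medians that reversed for A159V IgG over WT IgG were those of Th2 without the 3 deepest cells (-0.48), of the cell cycle with 8 more absent genes (-0.064), thinned (-0.41) and without the 3 deepest cells (-0.61), and of dendritic cells with 8 more absent genes (-1.03). The stromal median of WT anti-PD1 over WT IgG reversed with 8 more absent genes (-0.39), and the cell cycle median of A159V anti-PD1 over A159V IgG when thinned (0.11) and without the 3 deepest cells (0.28). Among named genes, Gzmb reversed for A159V IgG over WT IgG with Il2ra not used in the gate (-0.34). Apart from fewer cells or UMIs, the cause was not tested. Depth limits the A159V IgG members most, where a count of 0 allows up to 28.1 CPM.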
